A study of Mus musculus with 17 samples.

Results

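The signals by which neurons and their neighbors reach microglia were followed through 10 genes of 3 ligand and receptor axes and 1 sensor of injury. Fractalkine (Cx3cl1) and its receptor (Cx3cr1) form the first axis. The ligands Csf1 and Il34 with their common receptor Csf1r form the second, and Tgfb1 and Tgfb2 with the receptor chains Tgfbr1 and Tgfbr2 form the third. P2ry12, a microglial receptor for ADP, was added to these. The 10 genes were taken by symbol from a list set by pathway, and all 10 were present among the 36293 genes of the bulk files and among the 37608 genes of the single-nucleus files.

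The mice were male C57BL/6J animals that went through chronic unpredictable stress (CUS), in which several varying stressors a day were given over nearly 2 weeks, or were gently handled as controls. No transgene, deletion or drug is named for either group. Nuclear RNA of the medial prefrontal cortex (mPFC) was sequenced in bulk from 4 control and 5 CUS mice, labelled as postnatal day 90, after a battery of behavioral tests. Single nuclei of the neocortex were profiled by sNucDrop-seq, a droplet method that counts unique molecular identifiers (UMIs), from 4 control and 4 CUS mice labelled as postnatal day 80. Each library came from 1 mouse, so each mouse was 1 replicate.

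Microglia are the resident macrophages of the brain, and they depend on cues from other cells. Fractalkine is a chemokine that neurons carry on their membrane and can shed, and its receptor in the brain is found on microglia. Csf1 and Il34 both activate Csf1r, the kinase on which microglial survival depends. TGF-beta ligands bind Tgfbr2, which recruits and activates Tgfbr1, and this pathway maintains the mature state of microglia. P2ry12 steers microglial processes toward sites that release nucleotides.

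The bulk libraries held 26188825 to 30525015 reads on genes. Of 40000 cell barcodes, 26698 nuclei were kept, 1935 to 4235 per mouse, with a median of 2010 UMIs and 1274 genes, and a pair of mice shared at most 2 kept barcodes. Nuclei were sorted into classes by fixed markers, without use of the 10 genes, and each class is called "-like". Excitatory-like nuclei were the largest class with 17457 nuclei, ahead of 4168 inhibitory-like, 1793 striatal-like, 1184 astrocyte-like, 656 oligodendrocyte-like, 436 nuclei like oligodendrocyte precursor cells (OPC) and 214 microglia-like. Striatal-like nuclei thus made up 6.72% of nuclei from tissue labelled as cortex. Clusters of 577 nuclei stayed unnamed, 1.93% of control and 2.39% of CUS nuclei. The microglia-like class was named by 26 microglia markers, so their sum describes it and does not test the name. All 26 were detected there, but also in excitatory-like nuclei. They summed to 7580 CPM in the microglia-like class, against 62.2 in excitatory-like nuclei. The CPM unit scales UMIs to the total of the class, so that classes of different depth can be set side by side. The microglia-like class was not free of other RNA. Its 8 excitatory markers summed to 775 CPM, against 1233 in excitatory-like nuclei, and its 8 oligodendrocyte markers to 3289, against 36531 in oligodendrocyte-like nuclei.

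The genes lie on 7 chromosomes of the mm10 assembly, by the positions in the bulk files. Cx3cl1 (ENSMUSG00000031778) spans chr8:94772009-94782427 on the plus strand and Il34 (ENSMUSG00000031750) chr8:110741829-110805924 on the minus strand. Cx3cr1 (ENSMUSG00000052336) spans chr9:119901616-120069879 on the minus strand, and P2ry12 (ENSMUSG00000036353) spans chr3:59216272-59262871 on the minus strand. All 10 are protein-coding. The span given for Cx3cr1, 168 kb, encloses Gorasp1, Csrnp1 and Xirp1 on the same strand, with 2770, 2358 and 38 bulk reads against 8349 for Cx3cr1, and it overlaps Wdr48 on the opposite strand, which had 14706 reads. Csf1r, with 6439 reads, overlaps Hmgxb3 on the opposite strand (15252 reads). P2ry12, with 2359 reads, lies inside Med12l, which is on the opposite strand and had 78729 reads. The bulk libraries were made with a stranded kit, but the sources used here do not state whether the counting used strand or how shared reads were assigned. Bulk values of Cx3cr1, Csf1r and P2ry12 may therefore hold reads of these neighbors. UMIs of nuclei were taken from exons and introns on the strand of the gene, so those of Cx3cr1 may hold RNA of Gorasp1, Csrnp1 and Xirp1.

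The classes differed in which of these genes they held. Excitatory-like nuclei gave 77.7% of Cx3cl1 and 77.5% of Il34 UMIs, while Cx3cr1, Csf1r, P2ry12, Tgfbr1 and Tgfbr2 had their highest level in the microglia-like class. Among the classes of at least 200 nuclei, the level of Csf1 was highest in oligodendrocyte-like and astrocyte-like nuclei, that of Tgfb2 in astrocyte-like nuclei and that of Tgfb1 in microglia-like nuclei. By number of UMIs, excitatory-like nuclei, the source of 72.5% of all UMIs, still gave the most Csf1 (56.5%) and Tgfb2 (53.9%). Levels across classes are in CPM without TMM factors. They describe classes made from the same nuclei, so no class was tested against another.

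**Figure D1:**
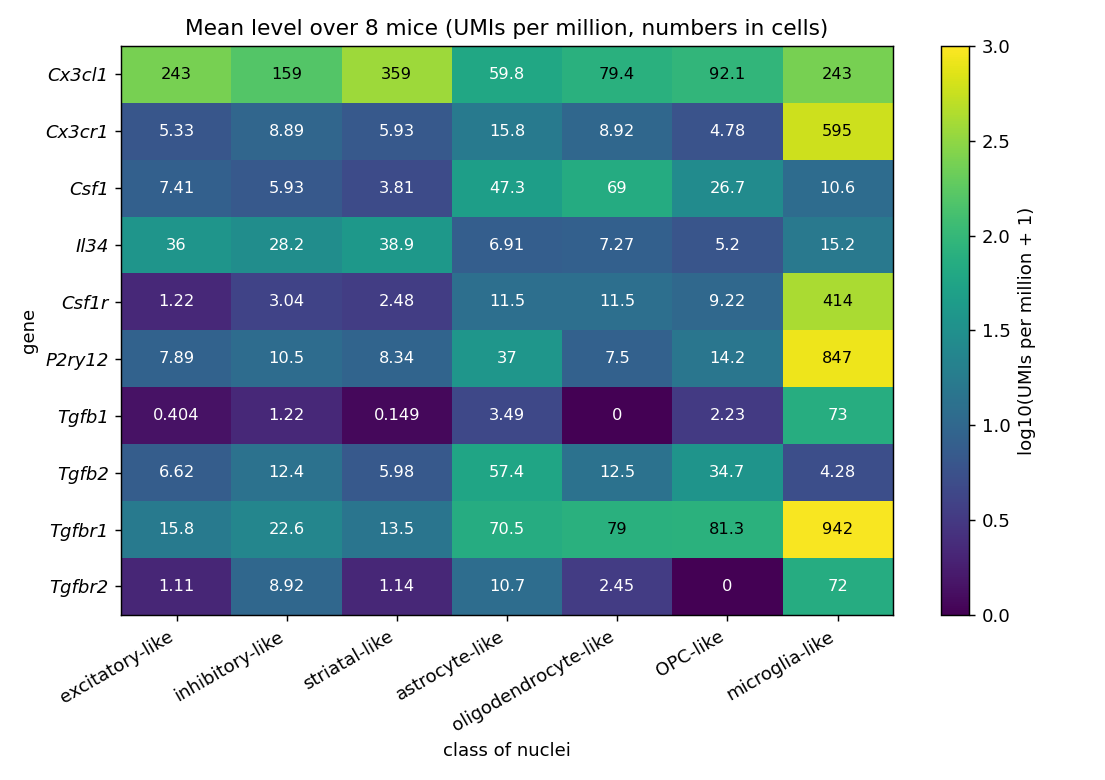
Mean level of each of the 10 genes (rows) in the 7 classes of at least 200 nuclei (columns), in CPM averaged over 8 mice, with color on a log10 scale after adding 1. Cx3cr1, Csf1r, P2ry12, Tgfbr1 and Tgfbr2 peak in the microglia-like column, and Cx3cl1 and Il34 in the striatal-like column.

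Cx3cl1 reached 359 ± 110 CPM (SD, n = 8 mice) in striatal-like nuclei, 243 ± 53.3 in excitatory-like nuclei and 159 ± 30.8 in inhibitory-like nuclei. It was lower in OPC-like (92.1 ± 38.6), oligodendrocyte-like (79.4 ± 35.7) and astrocyte-like nuclei (59.8 ± 36.8). Striatal-like and excitatory-like nuclei overlapped within their SDs, as did OPC-like, oligodendrocyte-like and astrocyte-like nuclei, while the SD ranges of excitatory-like and inhibitory-like nuclei narrowly failed to meet. Within a mouse, the log2 difference of excitatory-like minus striatal-like nuclei averaged -0.51 ± 0.20 in control and -0.56 ± 0.23 in CUS mice (SD, n = 4, with TMM factors). That of excitatory-like minus inhibitory-like nuclei averaged 0.57 ± 0.16 and 0.65 ± 0.05. Excitatory-like nuclei held 12107 of the 15585 Cx3cl1 UMIs, 77.7%, close to their 72.5% of all UMIs.

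Microglia-like nuclei, which carry the receptor, also held Cx3cl1 at 243 ± 74.4 CPM. Of these nuclei, 31.3% (exact Clopper-Pearson 95% interval 25.2% to 38.0%) had a Cx3cl1 UMI, at a median of 1608 UMIs per nucleus, against 7.69% of astrocyte-like nuclei at a median of 1214 UMIs. After each nucleus was thinned to 1000 UMIs and shallower ones were left out (51 of 214 microglia-like and 287 of 1184 astrocyte-like), the shares were 19.6% and 6.13%. Excitatory markers were detected in these classes too. The ratio of Cx3cl1 to the summed excitatory markers was 0.203 in excitatory-like, 0.237 in astrocyte-like, 0.233 in oligodendrocyte-like, 0.300 in microglia-like and 0.379 in OPC-like nuclei, whereas in striatal-like and inhibitory-like nuclei it was 1.93 and 1.03. The part of neuronal RNA in the microglia-like level was not tested. These intervals cover counting error only.

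Within neurons, the 2 striatal-like clusters, led by Drd1 and by Adora2a, had 361 ± 129 and 355 ± 92.6 CPM of Cx3cl1. Among 14 excitatory-like clusters of at least 200 nuclei, the mean ran from 166 in a cluster led by Cpne7 to 320 in one led by Rprm and Foxp2, markers of layer 6. Among 6 inhibitory-like clusters it ran from 137 in the Adarb2 and Kit cluster to 255 in the Pbx3 and Foxp2 cluster, and the Pvalb cluster stood at 141 ± 33.5. The highest value of any cluster, 529 ± 120, belonged to an unnamed cluster of 201 nuclei led by Nefm and Nefl. It met the naming rule of neither neuronal class and was shallow, with a median of 1015 UMIs.

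Among the classes of at least 200 nuclei, Il34 was neuronal too, but its order among clusters was another one. Its level was 38.9 ± 9.96 CPM in striatal-like, 36.0 ± 4.98 in excitatory-like and 28.2 ± 6.30 in inhibitory-like nuclei, which do not differ beyond their SDs, against 6.91 ± 4.94 in astrocyte-like nuclei. The Sst cluster, which had a middling Cx3cl1 level (184 ± 32.5), had the highest Il34 level of the clusters of at least 200 nuclei, 66.8 ± 16.0. The Rprm and Foxp2 cluster, highest of the excitatory-like clusters for Cx3cl1, had 19.1 ± 5.02 CPM of Il34. In the small endothelial-like class (60 nuclei) and in a cluster of 75 nuclei led by Slc22a6 and Slc6a13 Il34 rested on 8 and 11 UMIs. Their levels, 149 ± 364 and 94.4 ± 78.9 CPM, could not be set apart from the neuronal ones by the SDs. That cluster met the rule for fibroblasts, but its choroid plexus markers summed to 9266 CPM and its astrocyte markers to 7091, against 1768 for fibroblast markers, so it is called by its leading genes. After thinning to 1000 UMIs, 14.0% of its nuclei had an Il34 UMI (6.26% to 25.8%). In excitatory-like nuclei the thinned share was 3.44% (3.17% to 3.73%), and both intervals cover counting error only.

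**Figure D2:**
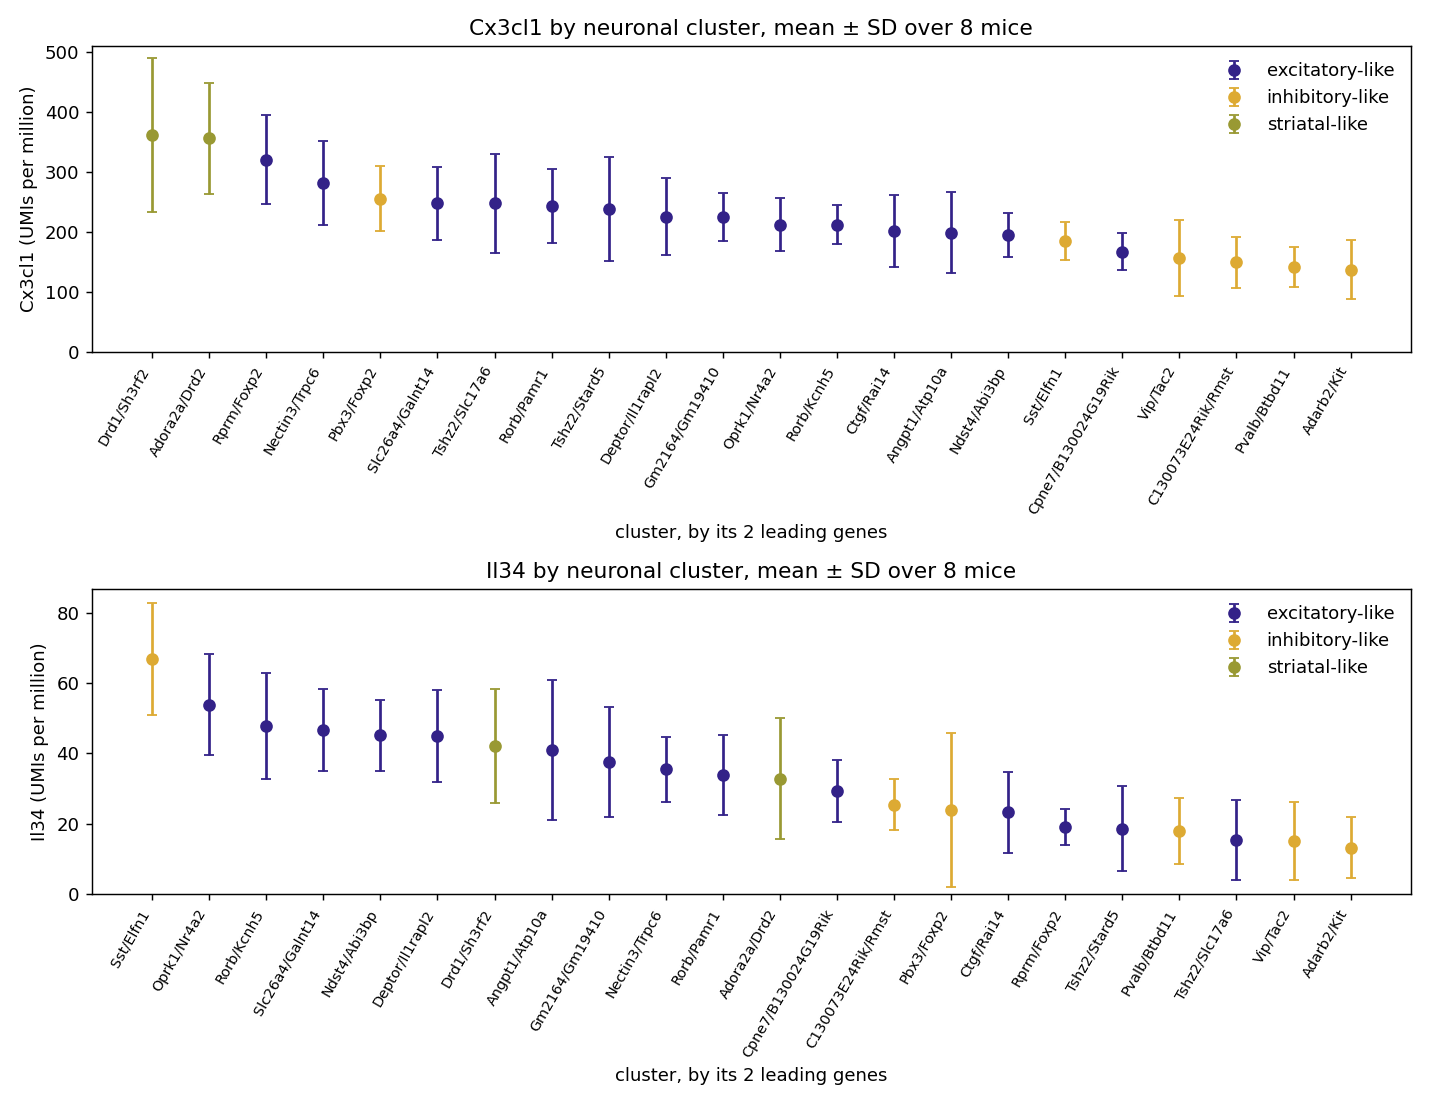
Cx3cl1 (top) and Il34 (bottom) in each named neuronal cluster of at least 200 nuclei, ordered by level and named by its 2 leading genes. Points are means over 8 mice in CPM and bars are SDs. The striatal-like clusters lead for Cx3cl1, at 361 and 355, and the Sst/Elfn1 cluster leads for Il34, at 66.8.

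Csf1 had 69.0 ± 40.7 CPM in oligodendrocyte-like and 47.3 ± 11.4 in astrocyte-like nuclei, against 7.41 ± 0.942 in excitatory-like and 5.93 ± 2.72 in inhibitory-like nuclei. Oligodendrocyte-like nuclei gave 9.42% of Csf1 UMIs from 1.35% of all UMIs. The deeply sampled excitatory-like class still held 354 of the 626 Csf1 UMIs, with a UMI in 1.88% of its nuclei, against 0.935% of microglia-like nuclei (median 2279 and 1608 UMIs per nucleus), and the part of free RNA in it was not tested. In microglia-like nuclei Csf1 had 5 UMIs, all from 1 mouse.

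Among the classes of at least 200 nuclei, Tgfb2 was highest in astrocyte-like nuclei at 57.4 ± 30.2 CPM, followed by OPC-like nuclei at 34.7 ± 30.3, which overlap it within the SD. The small endothelial-like class had 50.8 ± 77.6 from 17 UMIs. The neuronal classes had 12.4 ± 3.40 (inhibitory-like), 6.62 ± 1.67 (excitatory-like) and 5.98 ± 5.12 (striatal-like), and microglia-like nuclei had 3 UMIs in all. Tgfb1 was the scarcest of the 10 genes in nuclei, with 72 UMIs. Of those, 31 came from the microglia-like class, where 11.7% of nuclei had a UMI against 0.115% of excitatory-like nuclei. No Tgfb1 UMI was found in 656 oligodendrocyte-like nuclei, which allows a share of nuclei with a UMI of up to 0.561% (exact 95% interval).

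A very small class held much of the RNA of the receptors. Microglia-like nuclei made up 0.802% of nuclei and 0.676% of UMIs. They gave 59.0% of Csf1r, 40.8% of P2ry12, 38.9% of Cx3cr1, 25.2% of Tgfbr1 and 16.5% of Tgfbr2 UMIs. Of the ligands, Tgfb1 had as large a part there, 43.1% of its UMIs. Cx3cr1 had 595 ± 162 CPM there and at most 15.8 ± 14.2 in the other classes of at least 200 nuclei. Csf1r had 414 ± 151 against at most 11.5 ± 12.3, and P2ry12 had 847 ± 413 against at most 37.0 ± 20.5. None of these gaps was bridged by the SDs. By number of UMIs, excitatory-like nuclei gave more Tgfbr1 (43.0%) than microglia-like nuclei. Inhibitory-like (35.4%) and excitatory-like nuclei (26.9%) each gave more Tgfbr2.

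By nuclei, 75.2% of the microglia-like class had a P2ry12 UMI, 64.0% a Cx3cr1 UMI and 60.3% a Csf1r UMI. In excitatory-like nuclei, which were deeper (median 2279 UMIs), the shares were 1.98%, 1.41% and 0.321%. The share of P2ry12 in astrocyte-like nuclei was 3.46% (2.50% to 4.67%), and microglia markers summed to 247 CPM there, against 62.2 in excitatory-like nuclei. The part of free microglial RNA in those nuclei was not tested.

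The TGF-beta receptor chains were spread more widely. Tgfbr1, the signaling kinase, had 942 ± 434 CPM in microglia-like nuclei, then, among the classes of at least 200 nuclei, 81.3 ± 47.5 in OPC-like, 79.0 ± 37.0 in oligodendrocyte-like and 70.5 ± 46.2 in astrocyte-like nuclei, which did not differ beyond their SDs. The small Slc22a6 and Slc6a13 cluster had 219.5 ± 172 from 23 UMIs. Excitatory-like nuclei had 15.8 ± 3.16, with a UMI in 3.59% of nuclei. Tgfbr2, the chain that binds the ligand, had 72.0 ± 63.5 in microglia-like nuclei from 35 UMIs, and the endothelial-like class followed with 49.0 ± 55.4 from 12 UMIs. Inhibitory-like nuclei had 8.92 ± 4.46 CPM of Tgfbr2 and excitatory-like nuclei 1.11 ± 0.380. At this depth the microglia-like level of Tgfbr2 could not be set apart from the endothelial-like one.

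Across the 7 classes, the genes whose pattern was most like that of a member were ranked by Pearson's r of log2(CPM + 10), over 8977 or 8978 genes with at least 1000 UMIs. Rasgef1a, Man2a1 and Cdk5r1 followed Cx3cl1 (r from 0.993 to 0.994), and Armc9, Gm16835 and Dapk1 followed Il34 (r from 0.982 to 0.993). P2ry12 was the nearest gene to Tgfb1 (r = 0.995) and the third nearest to Cx3cr1 (r = 0.989). Timp3 was nearest to Tgfb2 (r = 0.995), Ilk to Csf1 (r = 0.986), Ppid to Csf1r (r = 0.994), Akap10 to Tgfbr1 (r = 0.995) and Acbd3 to Tgfbr2 (r = 0.988). With 7 points that share libraries and free RNA, these values are a description.

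The comparison of CUS with control mice in the mPFC asked whether chronic stress moved these genes. None of the 10 passed the FDR of 0.05 in edgeR's quasi-likelihood test over 18394 genes, in which 3.29% of all genes were called (214 higher and 392 lower, or 203 and 619 without TMM scaling). An unadjusted p under 0.05 was reached by 4 of the 10 members and by 3954 of the 18394 genes. Cx3cl1, Il34 and P2ry12 were higher in CUS and Tgfbr1 was lower. The likelihood ratio test and DESeq2, which called 7.23% and 7.68% of genes, each called 1 member, Cx3cl1. In bulk tissue, fewer cells of a type and less RNA per cell cannot be told apart.

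Cx3cl1 in the control mice stood at 127, 122, 135 and 119 CPM, here reads scaled by library size and TMM, edgeR's correction for composition. In the CUS mice it stood at 148, 132, 146, 158 and 159 CPM. Each CUS mouse lay above the control mean, and the groups overlapped only by the lowest CUS mouse, which was under the highest control mouse. The log2 fold change was 0.24 (SE 0.065) with an adjusted p of 0.0609 in edgeR's quasi-likelihood test, just outside the threshold. The adjusted p was 0.0265 in the likelihood ratio test and 0.0123 in DESeq2. It also passed without control replicate 3 (adjusted p = 0.0244, where 8.1% of genes were called) and without CUS replicate 2 (adjusted p = 0.0338, with 3.32% called), and over 15 alternatives it ran from 0.0123 to 0.157, with fold changes from 0.22 to 0.29.

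Markers of excitatory neurons stood higher in CUS as well. The 8 excitatory markers summed to 1027 to 1330 CPM in control and 1304 to 1386 CPM in CUS mice, all 8 fold changes were above 0 with a median of 0.26, and Nrn1 and Neurod6 were called higher. Other neuronal lists went both ways. All 4 markers of layers 5 and 6 had fold changes above 0 (median 0.23), as had 4 of 5 for layers 2 and 3, 3 of 4 for layer 5, and 2 of 3 tested for Pvalb, 3 of 4 for Sst and 3 of 4 for Ndnf interneurons (1 called higher and 1 lower), against 1 of 4 for layer 4, 2 of 4 for Vip interneurons and 1 of 5 for the claustrum (1 called lower). All 7 general inhibitory markers had fold changes below 0 (median -0.14, sums of 1399 to 1604 CPM in control and 1258 to 1578 CPM in CUS mice), as had all 5 markers of layer 6 excitatory neurons (median -0.37), with none called. Of 9 striatal markers 8 were below 0 with a median of -0.77, none of those called, while Pde10a was called higher and the sum ran from 757 to 1318 CPM in control and from 1255 to 1509 CPM in CUS mice. The part of these cell types in the Cx3cl1 difference was not tested. The 26 microglia markers summed to 222 to 232 CPM in control and 216 to 228 in CUS mice with none called, and with that sum as a covariate the fold change of Cx3cl1 was 0.29 (adjusted p = 0.0392, in a fit that called 3.15% of genes).

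Il34 was the other ligand whose mean level peaked in a neuronal class among the named classes of at least 200 nuclei. In bulk it read 29.7, 32.3, 31.7 and 30.7 CPM in control mice and 35.7, 32.8, 34.1, 33.6 and 33.6 CPM in CUS mice. It was the only member whose groups did not overlap, where 8.75% of all genes tested had groups that did not. The log2 fold change was 0.13 (SE 0.052, adjusted p = 0.184 in edgeR), and Il34 passed the threshold in none of 15 alternatives.

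The remaining ligands were not called. Csf1 ranged from 14.1 to 15.7 CPM in control and 13.2 to 16.8 CPM in CUS mice, so the control values lay inside the CUS range. Its log2 fold change was -0.01 (SE 0.086). Tgfb2 ranged from 13.2 to 17.1 CPM in control and 11.6 to 15.5 CPM in CUS mice (log2 fold change -0.14, SE 0.095). Tgfb1, the least abundant member with 550 reads over 9 mice, read 1.93, 1.92, 2.99 and 2.70 CPM in control and 2.74, 1.50, 1.72, 2.25 and 1.58 CPM in CUS mice. These groups overlapped broadly, and the fold change of -0.28 had an SE of 0.21.

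Among the receptors, Tgfbr1 was lower in each CUS mouse than the control mean. It read 56.6, 51.9, 57.4 and 62.7 CPM in control mice and 52.9, 47.9, 55.6, 46.7 and 46.5 CPM in CUS mice. The groups overlapped through control replicate 2 and CUS replicates 1 and 3. Its log2 fold change was -0.20 (SE 0.072, adjusted p = 0.139 in edgeR), and it passed the threshold in none of 15 alternatives. Markers of some glia had fold changes on the same side. All 8 oligodendrocyte markers had fold changes below 0 (median -0.51, sums of 274 to 641 CPM in control and 296 to 372 CPM in CUS mice, none called), as had all 6 markers of new oligodendrocytes (median -0.33, 2 called lower) and all 8 astrocyte markers (median -0.20, 2 called lower). Among the classes of at least 200 nuclei, those highest for Tgfbr1 had mixed markers, with 15 of 26 microglia and 4 of 6 OPC markers below 0 and none called. All 5 fibroblast markers were below 0 (median -0.40, none called), as were all 3 choroid plexus markers tested (median -0.39, 1 called lower). By contrast, 8 of 9 endothelial and 5 of 6 mural markers were above 0, none called. The part of these cells in the Tgfbr1 values was not tested.

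P2ry12 read 10.2, 7.32, 6.13 and 8.88 CPM in control mice and 11.6, 10.4, 10.1, 8.45 and 10.1 CPM in CUS mice. Each CUS mouse was above the control mean, and the spread of the control mice reached into the CUS values. The log2 fold change was 0.31 (SE 0.14, adjusted p = 0.203 in edgeR), not called in any of 15 alternatives, and the overlap with Med12l stated above applies to it.

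Cx3cr1 ranged from 30.3 to 36.0 CPM in control and 31.3 to 37.2 CPM in CUS mice, with a log2 fold change of 0.05 (SE 0.071). Csf1r ranged from 24.1 to 27.0 and 21.4 to 28.1 CPM (log2 fold change -0.03, SE 0.077). Tgfbr2 ranged from 25.6 to 32.4 and 25.1 to 31.7 CPM (log2 fold change 0.03, SE 0.085). For these 3 receptors the groups overlapped broadly, with the control range of Csf1r inside the CUS range, and for Csf1r and Tgfbr2, as for Csf1, the sign of the fold change turned when single mice were left out.

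**Figure D3:**
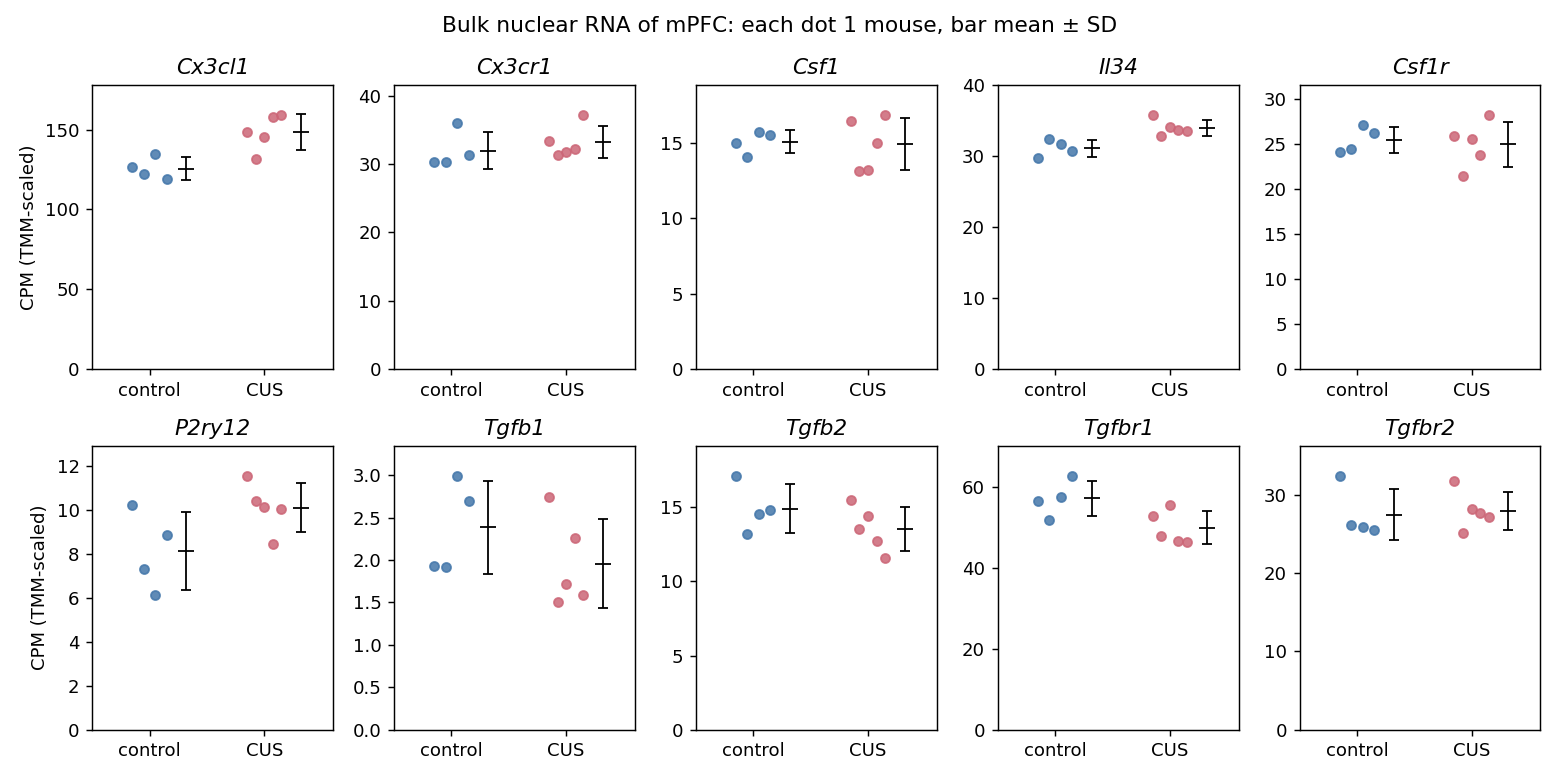
TMM-scaled CPM of the 10 genes in bulk nuclear RNA of the mPFC, with 1 dot per mouse (4 control, 5 CUS) and bars for mean ± SD. The y axes start at 0 and differ between genes. The CUS mice sit higher for Cx3cl1 and Il34, with no overlap for Il34, and lower on average for Tgfbr1.

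In the nuclei, mice were compared on UMIs summed per mouse, over all nuclei and within each class, on genes whose UMIs exceeded 10% of the nuclei. The FDR threshold was 0.2. The study ran these mice in 2 batches, called the effect of batch profound and fitted a batch term. The labels do not give the batch of a mouse, so batch could not be entered here. Over all nuclei only Cx3cl1 passed that filter, and it was not called, where 0.0199% of 5018 genes were. It read 184, 209.7, 231 and 172 CPM (scaled with TMM factors, as are the levels per mouse given next for each class) in control and 273, 209.8, 255 and 273 CPM in CUS mice. Each CUS mouse was above the control mean, and CUS replicate 2 lay within the control range. The log2 fold change was 0.35 (SE 0.12, unadjusted p = 0.0111 and adjusted p = 0.596 in edgeR). Without CUS replicate 2 it was 0.45 with an adjusted p of 0.0673, the sole alternative of 15 in which Cx3cl1 was called over all nuclei. Leaving out that mouse raised the calls over all genes to 828 of 5125, or 16.2%, so the call was not particular to Cx3cl1.

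Within classes, 13 tests of members could be made, and none was called, by the likelihood ratio test and DESeq2 either. An unadjusted p under 0.05 was reached in 3 of them, each time by Cx3cl1 in a neuronal class. Over all genes that p was reached by 506 of 5327 in excitatory-like, 282 of 4672 in inhibitory-like and 225 of 4448 in striatal-like nuclei. In excitatory-like nuclei, where 0.0375% of 5327 genes were called, Cx3cl1 read 187, 216, 245 and 188 CPM in control and 300.2, 226, 277 and 294 CPM in CUS mice. Here too only CUS replicate 2 fell within the control range. The log2 fold change was 0.40 (SE 0.12, unadjusted p = 0.00514, adjusted p = 0.515 in edgeR), and without CUS replicate 2 it was 0.50 (adjusted p = 0.0774), a fit that called 14.4% of 5440 genes. Of the excitatory markers, 6 of 7 tested in this class were above 0 (median 0.15, against -0.006 over all genes). Over all nuclei 6 of 6 tested were above 0 (median 0.21, against -0.003). None was called, and their part in the Cx3cl1 difference was not tested.

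In striatal-like nuclei Cx3cl1 read 269, 372, 311 and 245 CPM in control and 461, 290, 368 and 531 CPM in CUS mice. CUS replicate 2 was again the lowest of its group, and control replicate 2 lay above CUS replicates 2 and 3. The fold change was 0.45 (SE 0.18, adjusted p = 0.944 in edgeR, where none of 4448 genes was called). In inhibitory-like nuclei, where 0.0642% of 4672 genes were called, it read 145, 149.6, 159 and 112 CPM in control and 201, 142, 174 and 181 CPM in CUS mice. CUS replicate 2 stood within the control range, the other CUS mice above it. The fold change was 0.30 (SE 0.14, adjusted p = 0.800 in edgeR), and 0.37 without CUS replicate 2 (adjusted p = 0.198), where 4.86% of 4792 genes were called. Cx3cl1 was higher on average in CUS mice in 14 of 14 excitatory-like, 6 of 6 inhibitory-like and 2 of 2 striatal-like clusters of at least 200 nuclei, which all come from the same 8 mice. In the unnamed Nefm and Nefl cluster it was lower on average in CUS mice, at 459 against 599 CPM without TMM factors.

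In no test of a member's level in nuclei, over all nuclei or within a class, did the groups of mice stand apart. Differences between classes of the same mouse, given below, are not among these tests. Groups that do not overlap were found for 4.8% of genes over all nuclei, 5.56% in excitatory-like, 3.19% in inhibitory-like, 3.35% in striatal-like, 2.58% in oligodendrocyte-like, 2.7% in OPC-like and 2.29% in microglia-like nuclei. In astrocyte-like nuclei, where no member passed the filter, that share was 3.02% and 0.299% of 2680 genes were called.

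Il34 missed the filter in excitatory-like nuclei by few UMIs (1733 against 1746). Without a filter its log2 fold change there was 0.13 (SE 0.14, adjusted p = 0.765 in edgeR), and its mean was higher in CUS mice in 8 of 14 excitatory-like clusters.

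In glia the Cx3cl1 values went both ways. In oligodendrocyte-like nuclei, from 67 UMIs, it read 163, 66.3, 78.2 and 103 CPM in control and 67.0, 34.9, 51.1 and 75.6 CPM in CUS mice. Each CUS mouse was below the control mean, and the groups overlapped. The fold change was -0.52 (SE 0.41), not called, where 0.0% of 2748 genes were called and 88 had an unadjusted p under 0.05, and it was 0.08 when no doublets were removed. In OPC-like nuclei, from 50 UMIs, the fold change was 0.41 (SE 0.47, and 0.048 to 0.62 without single mice), and Tgfbr1, the other member tested there, had -0.48 (SE 0.49), where 0.0760% of 2631 genes were called. The Cx3cl1 difference between excitatory-like and oligodendrocyte-like nuclei of the same mouse averaged 1.11 ± 0.71 in control and 2.31 ± 0.32 in CUS mice on the log2 scale (SD, n = 4). The exact two-sided permutation test gave p = 0.0286, the smallest that 4 against 4 mice allow, and 0.152 adjusted over 16 pairs of class and member.

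**Figure D4:**
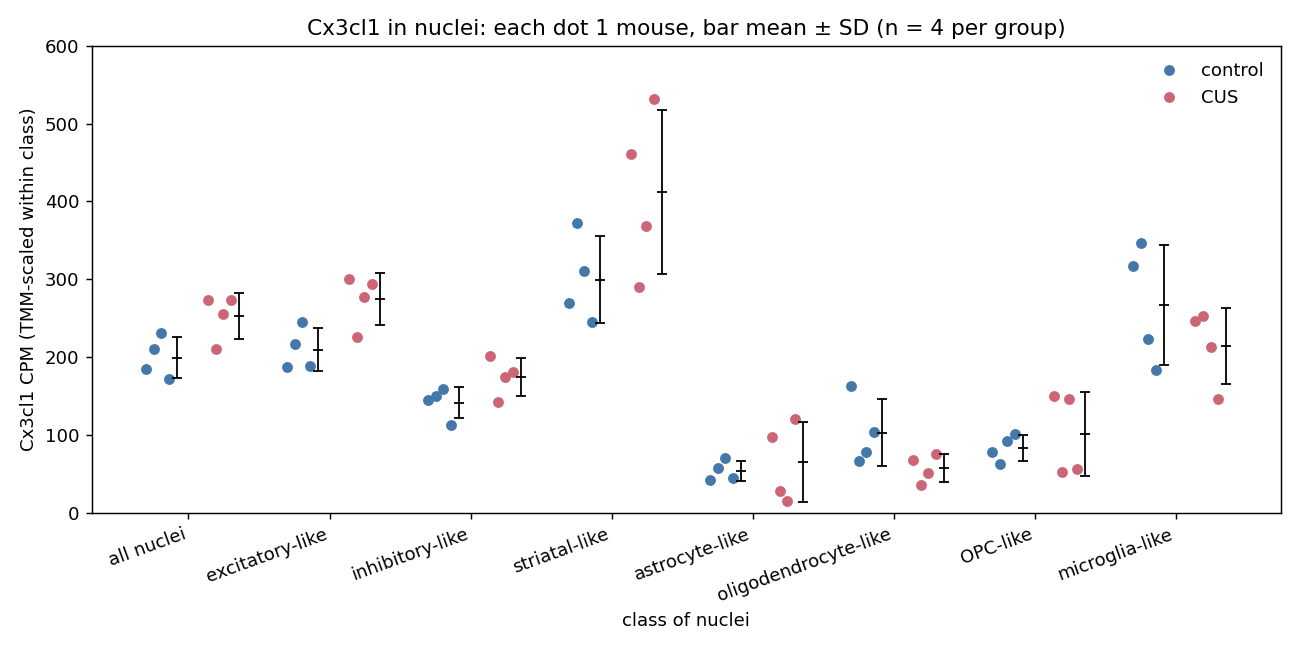
Cx3cl1 in each class of nuclei, as TMM-scaled CPM with 1 dot per mouse (4 control in blue, 4 CUS in red) and bars for mean ± SD. CUS means are above control means over all nuclei and in the excitatory-like, inhibitory-like and striatal-like classes, and below them in the oligodendrocyte-like and microglia-like classes.

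Receptors could be tested in the microglia-like class, where 7 members passed the filter and 0.0416% of 4808 genes were called. None of the 7 was called, and none had an unadjusted p under 0.05. Cx3cr1 read 580, 872, 489.9 and 512 CPM in control and 582, 336, 800.1 and 599 CPM in CUS mice. The groups overlapped throughout, and the log2 fold change was -0.06 (SE 0.33). P2ry12 read 739, 1821, 588 and 622 CPM in control and 775, 378, 889 and 1008 CPM in CUS mice, with a fold change of -0.30 (SE 0.33). Here 1 control mouse, replicate 2, was far above every other mouse.

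Tgfbr1 showed the same mouse at the top, with 686, 1975, 632 and 768 CPM in control and 881, 505, 1173 and 979 CPM in CUS mice (fold change -0.21, SE 0.32). Csf1r read 264, 769, 419 and 329 CPM in control and 388, 252, 516 and 409 CPM in CUS mice (fold change -0.25, SE 0.35). Leaving control replicate 2 out turned the sign of all these receptors, to 0.20 for Cx3cr1, 0.31 for P2ry12, 0.40 for Tgfbr1 and 0.15 for Csf1r, none of them called. Tgfbr2 (fold change -0.14, SE 0.63, from 35 UMIs) turned to 0.75 in the same way. Tgfb1 had 0.80 (SE 0.65, from 31 UMIs, and 0.36 to 1.43 without single mice) and Cx3cl1 -0.35 (SE 0.40, from 105 UMIs). These values rest on 9 to 48 microglia-like nuclei per mouse, and their SEs of 0.32 to 0.65 exceed every bulk fold change of a member.

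The microglia-like share of nuclei was 0.306%, 1.14%, 0.945% and 0.620% in control and 0.904%, 0.378%, 1.09% and 0.756% in CUS mice. The ranges covered each other. Means were 0.752% ± 0.367 and 0.781% ± 0.300 (SD, n = 4), with p = 0.914 in the exact two-sided permutation test.

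**Figure D5:**
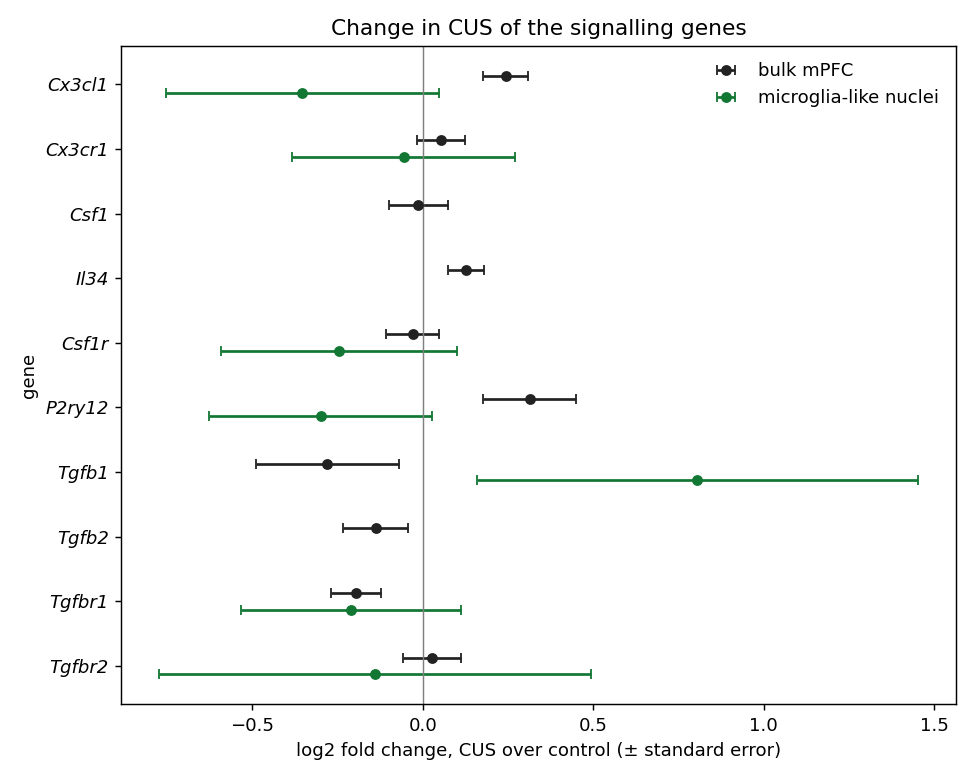
Log2 fold change of CUS over control for each gene, with its standard error, in bulk mPFC (black, 4 against 5 mice) and in microglia-like nuclei (green, 4 against 4 mice, 7 genes tested). Bulk Cx3cl1 (0.24), Il34 (0.13), P2ry12 (0.31) and Tgfbr1 (-0.20) lie farther than 2 standard errors from 0, and no value in microglia-like nuclei does.

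The partners of these axes were taken as fixed lists in the bulk data, beside a median log2 fold change of 0.006 over all genes. Of 7 partners of fractalkine and CSF1 signaling, all tested, none was called higher and 2 were called lower, with a median of -0.09, where 3.29% of all genes were called. The likelihood ratio test called the same 2. DESeq2 called 3, all lower, with Adam10 added, where it called 7.68% of all genes. Adam10 was also called lower without TMM factors, without CUS replicate 2 and without control replicate 3 (4.47%, 3.32% and 8.1% of all genes called). Ptprz1, a receptor phosphatase of astrocytes and OPCs that binds Il34, was lower in CUS, from a mean of 179 ± 14.2 CPM in control to 139 ± 6.23 CPM in CUS mice (SD, n = 4 and 5, log2 fold change -0.36, SE 0.061, adjusted p = 0.0120 in edgeR, and 0.0562 with the replicate number as a block and CUS replicate 5 left out). Sdc1, a syndecan that also binds Il34, had a log2 fold change of -1.07 (SE 0.24, adjusted p = 0.0361 in edgeR) on only 167 reads over all mice. It ranged from 0.747 to 1.09 CPM in control and 0.310 to 0.592 CPM in CUS mice, and it was no longer called without control replicate 1, 2 or 4 or CUS replicate 3, 4 or 5 (adjusted p from 0.0533 to 0.0990) or with the block (0.112). For neither gene did the groups overlap, as for 8.75% of all genes. The 8 astrocyte markers summed to 2162 to 2598 CPM in control and 1986 to 2346 CPM in CUS mice, with Aqp4 and Gja1 called lower, and their part in the lower Ptprz1 was not tested. In the nuclei Ptprz1 was not called, with a fold change of -0.06 (SE 0.15) in astrocyte-like and 0.04 (SE 0.17) in OPC-like nuclei.

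Of 26 further genes of the TGF-beta pathway, all tested, 1 was called lower and none higher, a share near the 3.29% of all genes, and 18 of 26 fold changes were below 0, with a median of -0.16. The likelihood ratio test called 4 of them (3 lower and 1 higher) and DESeq2 5 (4 lower and 1 higher), Skil included, where they called 7.23% and 7.68% of all genes. The called gene was Skil, which encodes SnoN, a repressor that binds Smad proteins and is itself induced by TGF-beta. It read 68.2, 64.8, 69.8 and 71.4 CPM in control and 57.5, 56.0, 59.5, 56.5 and 58.1 CPM in CUS mice. The groups did not overlap (log2 fold change -0.25, SE 0.049, adjusted p = 0.0198 in edgeR). Without CUS replicate 4 or 5 the adjusted p was 0.0713 or 0.0531, and with the replicate number as a block, a fit that also left out CUS replicate 5, it was 0.0703.

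None of 11 purinergic partners of P2ry12 was called by the quasi-likelihood test (median -0.06). Their lowest p values belonged to Gnai2, the inhibitory G protein subunit (-0.21, adjusted p = 0.0618, but 0.0397 in the likelihood ratio test and 0.0178 in DESeq2), and to P2ry13, another ADP receptor (0.38, adjusted p = 0.311). Of 13 genes of other neuron to microglia signals, such as Cd200 and Cd47, 11 were tested and none was called by the quasi-likelihood test (median 0.08). The nearest were Tyro3, a receptor kinase (0.28, adjusted p = 0.0793, but 0.0388 in the likelihood ratio test and 0.0309 in DESeq2), and the cytokine Il18 (-0.25, adjusted p = 0.0898, and 0.0489 without control replicate 3). Of 14 genes of reactive or inflammatory microglia 8 were tested and none was called by the quasi-likelihood test (median -0.12). The nearest were Apoe (-0.43, adjusted p = 0.0541), which passed in 5 of 15 alternatives, the likelihood ratio test (0.00930) and DESeq2 (0.00847) among them, and H2-Aa (-0.56, adjusted p = 0.349). All 8 astrocyte markers (2 called lower) and 15 of 26 microglia markers (none called) were below 0 in bulk. The part of either cell type in the Apoe value was not tested. Adjusted p-values are those of edgeR's quasi-likelihood test where no other is named. By that test none of the genes of these 5 lists that could be tested was called in any class of nuclei.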

How the data were processed

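The deposited bulk files hold whole-number counts of reads per gene, and the deposited single-nucleus files whole-number counts of UMIs per gene for 5000 barcodes a mouse. The authors aligned reads to mm10 with STAR (version not given in the sources used here), kept unique mappers and counted them with in-house programs. UMIs covered exons and introns.

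Bulk genes kept by filterByExpr were tested with edgeR 4.0.16 in R 4.3.3 (TMM, quasi-likelihood test, Benjamini-Hochberg FDR 0.05). Kept nuclei had 600 to 5000 genes and less than 5% of UMIs from mitochondria. Doublets, with scores above 0.2, were removed (4788, or 15.2%). The score rebuilt Scrublet's steps with an expected rate of 0.1. Nuclei were clustered with Seurat 5.3.0 (2000 variable genes without the members, 50 components, 20 neighbors, resolution 1). A glial, vascular or striatal name needed 3 markers at 1.5-fold in 5% of nuclei and 2 among the 10 leading genes. Neurons needed 3 markers of their class at 1.5-fold over glia and a 1.5-fold difference between Slc17a7 and the sum of Gad1 and Gad2. These cut-offs were set with the clusters in view. The clustering was sensitive to numerical rounding, and another setting of the linear algebra library moved some nuclei between clusters. UMIs were summed per mouse in classes of over 200 nuclei, on genes with UMIs above 10% of the nuclei, at an FDR of 0.2. Tests were checked on simulated data, with changes larger than any main fold change of a member. That check does not cover smaller changes or members with few UMIs. PCR copies were not removed in bulk, and intervals cover counting error only.

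Members, lists and tests were chosen with earlier results of these data known. Named beside the members are, of each list, the genes called in a main test, else the 2 with the smallest bulk p, and the 3 genes most like each member across classes, of which some are given. Adam10, called in alternatives only, is named as well. Marker genes named beside a result and the pairs of classes compared were chosen after their values were seen. Alternatives were the likelihood ratio test, DESeq2 1.42.0, no TMM, no filter, a replicate block, a microglia covariate, each mouse left out, resolutions of 0.6 and 1.5, members kept in clustering, doublets kept, and at least 1000 genes a nucleus. In bulk the block left out CUS replicate 5, whose number no control mouse has.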

Additional observations from a re-analysis of the deposited data

Results flagged for a closer look

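Of 50 groups of mice checked for a value far from the rest, 3 held one, where chance flags about 1 in 20. In bulk, Tgfbr2 stood at 32.4 CPM in control replicate 1, against 25.6 to 26.1 CPM in the other control mice. In microglia-like nuclei, control replicate 2 had 1821 CPM of P2ry12, with the next control mouse at 739, and 1975 CPM of Tgfbr1, with the next at 768. The last 2 values come from 1 mouse, which gave 48 microglia-like nuclei.

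The CUS difference of Cx3cl1 went opposite ways in 4 pairs of classes, in that every CUS mouse was above the control mean in one class and below it in the other. The log2 fold change was 0.40 in excitatory-like nuclei, against -0.35 in microglia-like and -0.52 in oligodendrocyte-like nuclei. In microglia-like nuclei 6 of 6 excitatory markers tested were above 0 (median 0.67), and 4 of 4 inhibitory (median -0.62) and 4 of 4 striatal markers (median -1.15) below, none called, and their part in the Cx3cl1 value was not tested. In inhibitory-like nuclei it was 0.30, against -0.35 in microglia-like and -0.52 in oligodendrocyte-like nuclei. The difference between classes of the same mouse was tested by exact two-sided permutation over 16 pairs. For excitatory-like against microglia-like nuclei p was 0.114 (adjusted 0.305), and for inhibitory-like against microglia-like nuclei it was 0.0857 (adjusted 0.274). Against oligodendrocyte-like nuclei p was 0.0286 for excitatory-like, inhibitory-like and striatal-like nuclei (adjusted 0.152), the smallest value that 4 against 4 mice allow. None passed after adjustment.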

How the results depend on the processing

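Over the alternatives run, 140 of 150 bulk and 223 of 236 nuclear fold changes of the members kept their direction, and 5 bulk and 3 nuclear ones passed their threshold, all of Cx3cl1. In bulk, the likelihood ratio test, DESeq2 and the microglia covariate each called 1 member, and leaving out a mouse gave 0 to 1. Leaving out a mouse gave 0 to 1 members over all nuclei and 0 to 2 in classes, from CUS replicate 2. The count of all bulk genes called was 606, against 1330 by the likelihood ratio test, 1413 by DESeq2, 233 with the replicate block, which left out CUS replicate 5, and 133 to 1508 without single mice. Called genes numbered 1 over all nuclei, against 17 by the likelihood ratio test and 22 by DESeq2, and 2 in excitatory-like nuclei, against 45 by either. Without CUS replicate 2 they were 828 over all nuclei, 786 in excitatory-like and 233 in inhibitory-like nuclei (3 with every mouse), and without any other single mouse 0 to 1, 0 to 7 and 0 to 2. The cause of these shifts was not tested.

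Same-numbered bulk mice had correlations of 0.025 to 0.146 in their deviations, and nuclei mice -0.452 to 0.399. Mice of different numbers were not compared, so these values cannot decide whether the numbers pair mice. In bulk the replicate block left out CUS replicate 5, whose number no control mouse has. With the block Cx3cl1 in bulk was 0.22 (adjusted p = 0.146), and no member was called in any data set. Ptprz1 (adjusted p = 0.0562), Skil (0.0703) and Sdc1 (0.112) lost their calls, and Tgfbr2 in microglia-like nuclei was 0.51. Leaving out CUS replicate 5 alone, with 140 genes called, also ended the calls of Skil and Sdc1 but not that of Ptprz1.

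The difference in microglia-like share (CUS minus control, 0.029 percentage points) was -0.024 at resolution 1.5, -0.048 with members kept in clustering and -0.27 without the doublet filter, and ran from -0.12 to 0.16 without single mice. With a minimum of 1000 genes no microglia-like class formed. Several fold changes turned sign. In bulk Tgfbr2 was -0.00033 without TMM and -0.023 to 0.11 without single mice. Csf1r was 0.027 and Csf1 0.038 with the microglia covariate, and without single mice they ran from -0.077 to 0.019 and from -0.060 to 0.028. Without the doublet filter, microglia-like Csf1r was 0.050, Cx3cr1 0.41 and P2ry12 0.015, and oligodendrocyte-like Cx3cl1 was 0.081. Without single mice, microglia-like Csf1r ran from -0.39 to 0.15, Cx3cr1 from -0.24 to 0.20, P2ry12 from -0.54 to 0.31, Tgfbr1 from -0.45 to 0.40 and Tgfbr2 from -1.19 to 0.75. Depth is a limit in the microglia-like class, with 31 to 454 UMIs per tested member.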
